A study of Mus musculus with 10 samples.

Results

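The genes described here are 10 precursors of neuropeptides that sensory neurons use: *Calca*, *Calcb*, *Tac1*, *Sst*, *Nppb*, *Gal*, *Adcyap1*, *Nts*, *Npy* and *Vip*. They were chosen by name, as the rows whose Ensembl identifier carries one of these symbols, and all 10 were found among the 55414 genes that each library lists. RNA was taken from dorsal root ganglia (DRG), the ganglia beside the spinal cord that hold the cell bodies of somatosensory neurons, of mouse embryos at E18.5, and sequenced in bulk. The control group comprised 5 libraries and the *WD1* cKO group 5. In *WD1* cKO embryos (*Wnt1Cre/+; Dach1 flox/flox*), a Cre recombinase driven by *Wnt1* regulatory sequence, active in the neural crest and therefore in more than sensory neurons, deletes the floxed exon of the transcription factor gene *Dach1*. The controls carry the *Dach1* flox/flox alleles as well and have no Cre according to the series' design text. They were littermates on a mixed C57Bl/6J and CD1 background, and which embryos shared a litter is not given. Groups were read from the sample titles, because the genotype entries of the labels are exchanged between the groups relative to the titles. According to the study, *WD1* cKO mice die soon after birth.

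A neuropeptide is cut from a longer precursor protein in the secretory pathway, stored in dense core vesicles and released on strong stimulation, after which it acts on G protein-coupled or guanylyl cyclase receptors of neighbouring cells. In the DRG, *Calca* and *Calcb* (the CGRP genes) and *Tac1* (substance P and neurokinin A) mark peptidergic nociceptors, the pain-sensing neurons that release these peptides in skin and dorsal horn. *Adcyap1* (PACAP) and *Gal* (galanin) are also made by subsets of small sensory neurons, while *Nppb*, *Sst* and *Nts* mark the itch-sensing neurons of the adult ganglion. *Vip* and *Npy* are scarce in intact sensory neurons, *Vip* is induced with *Gal* after nerve injury, and *Npy* is a peptide of sympathetic neurons and of spinal cord interneurons.

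The cAMP response element, a binding motif of CREB-family factors known from the somatostatin and *Vip* genes, is shown first because it is a feature that several of these genes share. Its half-site, TGACG, was searched on both strands of the 250 bases before each start site in the RefSeq promoter table (GRCm38.p6, an older build than that of the counts). It was present in 6 of the 9 members that the table holds (*Adcyap1*, *Calca*, *Nts*, *Sst*, *Tac1* and *Vip*), or 66.7%, and in 19.8% of the 27025 genes of the table. The full palindrome TGACGTCA, which contains the half-site on either strand, was present in *Sst* alone among the members and in 1.77% of all genes. A match of these letters is a description and not evidence of a bound site. For *Vip* and *Calca*, 100 bases before the start are printed, and for *Tac1* and *Sst*, where other transcript models begin further upstream, 30 bases from base 60 to base 31 before it. The sequences are written 5′ to 3′ on the strand of the gene, with the motif in capitals (CGTCA is the half-site on the opposite strand).

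*Vip*, chr10:5639118-5639217, plus strand: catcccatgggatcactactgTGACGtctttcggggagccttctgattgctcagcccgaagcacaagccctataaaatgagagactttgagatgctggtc

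*Calca*, chr7:114636358-114636457, minus strand: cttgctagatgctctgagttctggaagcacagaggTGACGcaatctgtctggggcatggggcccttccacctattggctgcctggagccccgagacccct

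*Tac1*, chr6:7555001-7555030, plus strand: acgtggctctacaggctCGTCAcgcctgag

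*Sst*, chr16:23890875-23890904, minus strand: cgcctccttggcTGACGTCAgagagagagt

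*Calca* and *Calcb* lie on chromosome 7 and are paralogs, so their counts depend on how reads from near-identical stretches were assigned. For 1 CGRP transcript of each gene (GENCODE transcripts of GRCm38), 120 bases of coding sequence are printed from the start of their longest identical run. They are 95.8% identical, with 5 mismatches in capitals after the identical run of 60 bases.

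*Calca*: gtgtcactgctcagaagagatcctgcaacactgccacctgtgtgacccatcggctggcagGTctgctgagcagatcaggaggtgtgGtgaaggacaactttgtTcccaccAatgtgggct

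*Calcb*: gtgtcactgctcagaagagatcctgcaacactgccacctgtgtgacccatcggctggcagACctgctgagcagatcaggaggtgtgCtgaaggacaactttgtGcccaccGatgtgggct

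How reads with several matches were counted is not stated, so the split of counts between these genes is uncertain. No other annotated gene overlaps any of the 10 members in the annotation used.

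Depth allowed the abundant precursors to be read closely and the rare ones only coarsely. Libraries summed to between 20465132 and 27528784 counts in controls and between 19757596 and 34796562 in *WD1* cKO embryos, and levels are given as CPM, the count relative to the library's total after scaling by edgeR's TMM factor. *Dach1*, the targeted gene, was at 35.1 to 41.6 CPM in the 5 controls and at 19.1 to 20.7 CPM in the 5 *WD1* cKO libraries, a log2 fold change of -0.92 (SE 0.05, edgeR, adjusted p = 5.5e-06), which goes with the titles. The 8 markers of DRG neurons, led by *Prph* and *Tubb3*, summed to between 5891 and 6317 CPM over all libraries. *Xist*, a transcript of female cells, was at 958 to 1169 CPM in Control replicates 2 and 5. It was at 974 to 1068 CPM in *WD1* cKO replicates 1, 3, 4 and 5. In every other library *Xist* was at 3.39 to 4.85 CPM, so the groups were not balanced for it. Control replicate 3 held 15.3 CPM of the 5 spinal cord markers (at most 1.32 in any other library, with all 5 highest there), and Control replicate 5 held 260 CPM of the 9 sympathetic neuron markers (at most 58.2 in any other library, with all 9 highest there). Replicates 4 and 5 of both groups stood apart from replicates 1 to 3, which no label explains: the 5 blood markers summed to between 155 and 243 CPM in the former and between 509 and 2464 CPM in the latter. The labels do not say whether the numbers mark a batch, so the members' differences are also given within each set or with a term for this division, and p-values measure the spread between these embryos.

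Per kilobase of merged exon, the scale on which levels of different genes are ranked here, *Calca* was the highest of the precursors. Shares of counts and the count ratio of *Calca* to *Calcb*, given further below, are not scaled by length. *Calca* reached 189 CPM per kb in controls (SD 41.9, n = 5), above 99.4% of the genes tested. *Gal* followed at 80.3 CPM per kb (SD 4.64), then *Adcyap1* at 29.2 (SD 2.96), *Tac1* at 25.8 (SD 4.65) and *Calcb* at 17.6 (SD 4.70). Each of these exceeded the next in all 10 libraries, except that *Adcyap1* exceeded *Tac1* in 8 of 10, a difference within their spread. The other 5 precursors had means at or below that of *Nts*, 2.57 CPM per kb in controls, and their neighbours in the order overlapped: *Nts* exceeded *Npy* in 7 libraries, *Npy* exceeded *Sst* in 9, *Sst* exceeded *Nppb* in 2 and *Nppb* exceeded *Vip* in 6. *Nppb*, which marks itch neurons in the adult, was thus at 0.639 CPM per kb in controls (SD 0.218), or 6 to 20 counts in a library.

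**Figure D1:**
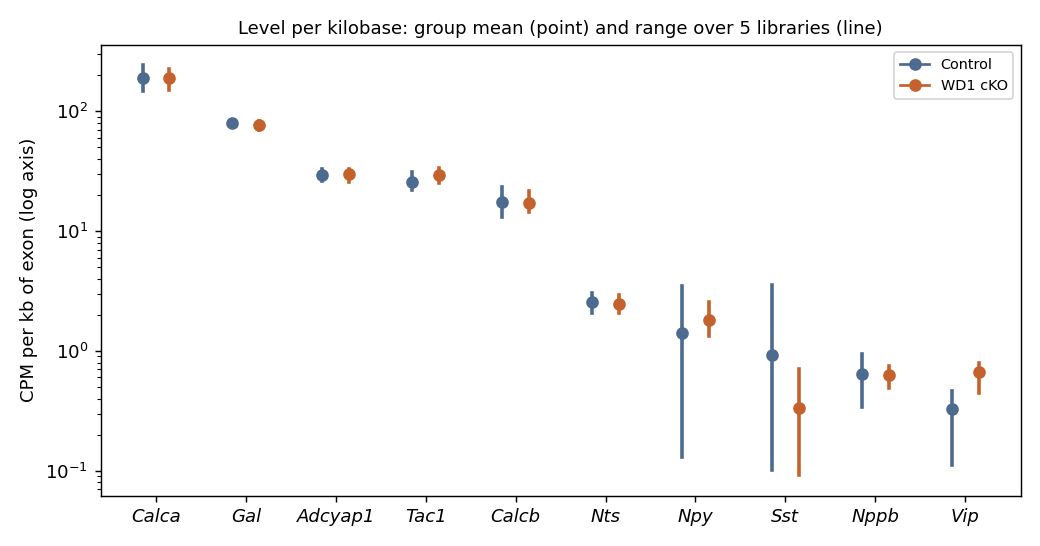
Level of each precursor in CPM per kilobase of merged exon (log axis), with the group mean of 5 libraries as a point and their range as a line, for Control (blue) and *WD1* cKO (orange). *Calca* lies highest at 189 CPM per kb in controls, and *Vip* is the lowest in controls at 0.328 and at 0.663 in *WD1* cKO libraries.

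Together the 10 precursors took up 0.0606% of the total count in controls (SD 0.0092, n = 5) and 0.0617% in *WD1* cKO libraries (SD 0.0078, n = 5). The difference of 0.0012 percentage points was smaller than the spread (exact permutation test, two-sided, p = 0.82). *Calca* alone supplied 52.0% of the members' counts in controls (SD 3.07) and 50.8% in *WD1* cKO libraries (SD 3.01), a difference that was also within the spread (exact permutation test, two-sided, p = 0.55). *Calca*, *Tac1*, *Gal* and *Adcyap1* together supplied between 95.1% and 95.6% in every library.

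The comparison of *WD1* cKO with Control asks whether precursors of the sensory peptides differ in level when *Dach1* is deleted early in the neural crest. Of the 10 members, 9 had at least 10 counts in at least 5 libraries and were tested, and *Sst* was not. With edgeR's quasi-likelihood test, adjusted p-values under 0.05 were found for none of the 9, against 0.04% of the 17490 genes tested, and 1, *Vip*, had an unadjusted p-value under 0.05, against 4.5% of all genes tested. *Tac1* had one as well once the division into replicates 1 to 3 and 4 and 5 was a term, making 2 of 9 against 7.33%. The median log2 fold change of the 9 was -0.01 and that of all genes tested 0.00, with 4 members above 0 and 5 below. The groups of 5 overlapped for every member, whereas 1.06% of the genes tested had groups that did not overlap. In bulk RNA, fewer cells of a type and less RNA per cell cannot be told apart, which holds for every level given here.

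**Figure D2:**
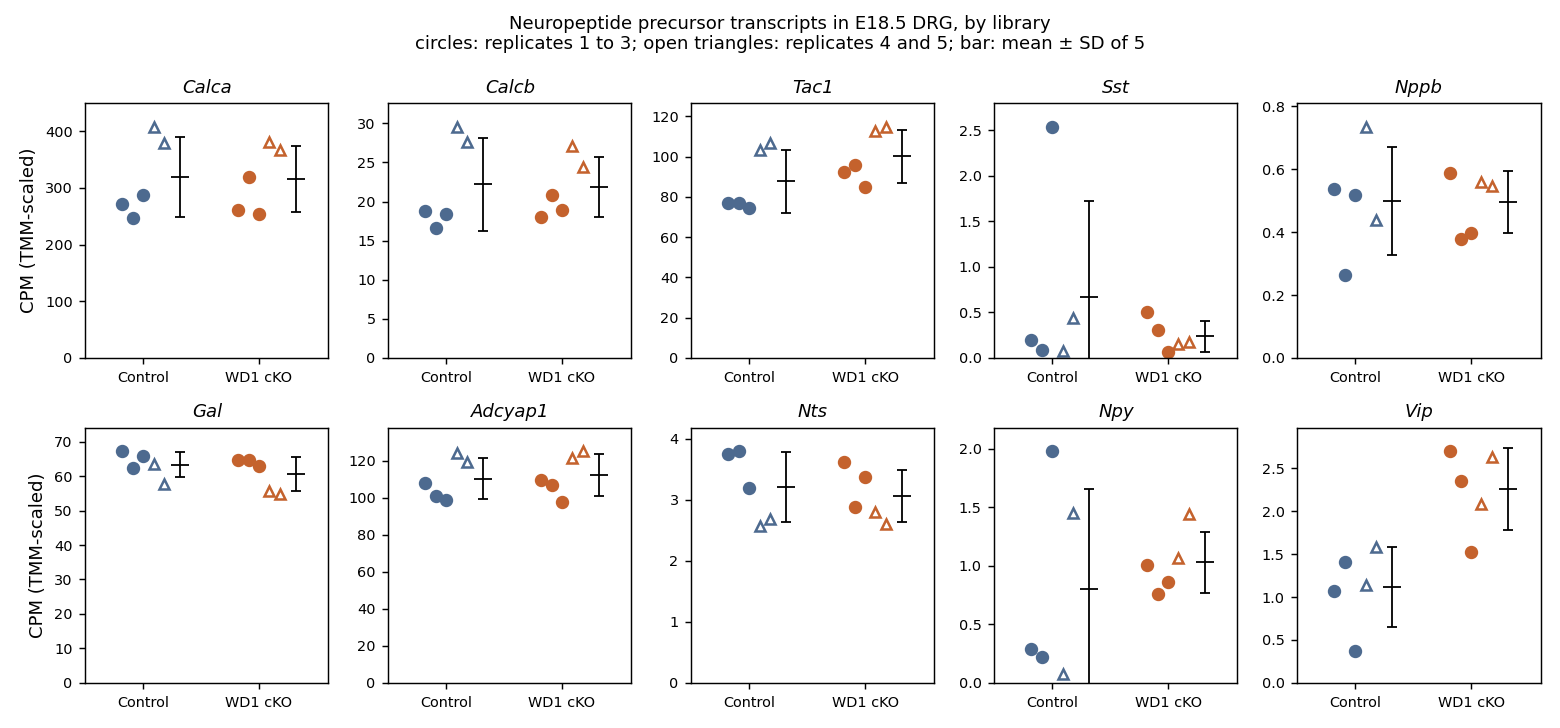
CPM of the 10 precursors in each library (Control in blue, *WD1* cKO in orange), with circles for replicates 1 to 3, open triangles for replicates 4 and 5, and the mean ± SD of 5 beside them (the lower bar of *Sst* and *Npy* is cut at 0). *Vip* is above all controls in 4 of the 5 *WD1* cKO libraries, and *Calca*, *Calcb*, *Tac1* and *Adcyap1* are higher in replicates 4 and 5 of both groups.

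*Vip*, the precursor of vasoactive intestinal peptide, showed the largest fold difference of the members tested. The controls held 22, 32, 8, 31 and 36 counts of *Vip*, or 1.07, 1.41, 0.377, 1.14 and 1.58 CPM in replicates 1 to 5. The *WD1* cKO libraries held 64, 62, 46, 41 and 91 counts, or 2.696, 2.36, 1.52, 2.08 and 2.63 CPM. Of the *WD1* cKO libraries 4 lay above every control, and the remaining one, replicate 3, lay just below Control replicate 5, so the groups met at their edges. The mean was 1.12 CPM in controls (SD 0.462, n = 5) and 2.26 CPM in *WD1* cKO libraries (SD 0.476, n = 5), a log2 fold change of 1.00 (SE 0.28, 95% interval 0.40 to 1.61). The unadjusted p in edgeR was 0.0036 and the adjusted p 1.00, so the difference failed the correction over all genes. In this re-analysis it passed the study's cut-off of p under 0.005 with a log2 change over 0.15, as did 67 genes in all. The study applied that cut-off to its own DESeq2 results, so its gene list is not the one counted here. An exact permutation test over the 10 libraries gave p = 0.016 (two-sided), where 0.0079 is the smallest that 5 against 5 allows.

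The direction of the *Vip* difference was the same within both sets of replicates. It was 1.18 on the log2 scale (SE 0.40, edgeR, unadjusted p = 0.017) in replicates 1 to 3 and 0.82 (SE 0.25, edgeR, unadjusted p = 0.013) in replicates 4 and 5, and every *WD1* cKO library exceeded every control within its set. Over all libraries left out in turn it stayed between 0.79 and 1.16, with an unadjusted p under 0.05 in all 10 fits. Without Control replicates 3 and 5, the libraries with spinal cord and sympathetic markers, it was 0.90 (SE 0.22, edgeR, unadjusted p = 0.0019, adjusted p = 0.75), a choice made after the data were seen. The adjusted p ranged from 0.19 to 1.00 over the other filters, scalings, models and left-out libraries, with 0.25 in DESeq2's Wald test. DESeq2 with the term for the sets, added after the data were seen, gave an adjusted p of 0.12.

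*Tac1*, the precursor of substance P, differed less in size and was also higher within both sets of replicates. It was at 77.2, 77.1, 74.4, 103 and 107 CPM in Control replicates 1 to 5. It was at 92.3, 95.8, 84.9, 113 and 115 CPM in *WD1* cKO replicates 1 to 5. The pooled groups overlapped, but within replicates 1 to 3 and within replicates 4 and 5 each *WD1* cKO library lay above each control. *Tac1* and *Vip* were the 2 of 9 members with that pattern, which 1.42% of the genes tested showed in this direction. The pooled log2 fold change was 0.19 (SE 0.12, 95% interval -0.07 to 0.44, edgeR, unadjusted p = 0.13, adjusted p = 1.00). With the term for the sets it was 0.20 (SE 0.04, 95% interval 0.11 to 0.28, edgeR, unadjusted p = 2.4e-04), and the adjusted p of 0.18 still missed the threshold. Within replicates 1 to 3 it was 0.25 (edgeR, unadjusted p = 8.6e-04) and within replicates 4 and 5 it was 0.12 (edgeR, unadjusted p = 0.026). DESeq2 with the same term, added after the data were seen, called *Tac1* with an adjusted p of 0.0083, as 1 of 9 members against 0.189% of all genes tested. Over the other filters, scalings, models and left-out libraries the adjusted p of *Tac1* ranged from 0.18 to 1.00, so the call depends on the tool and on whether the sets are modelled.

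**Figure D3:**
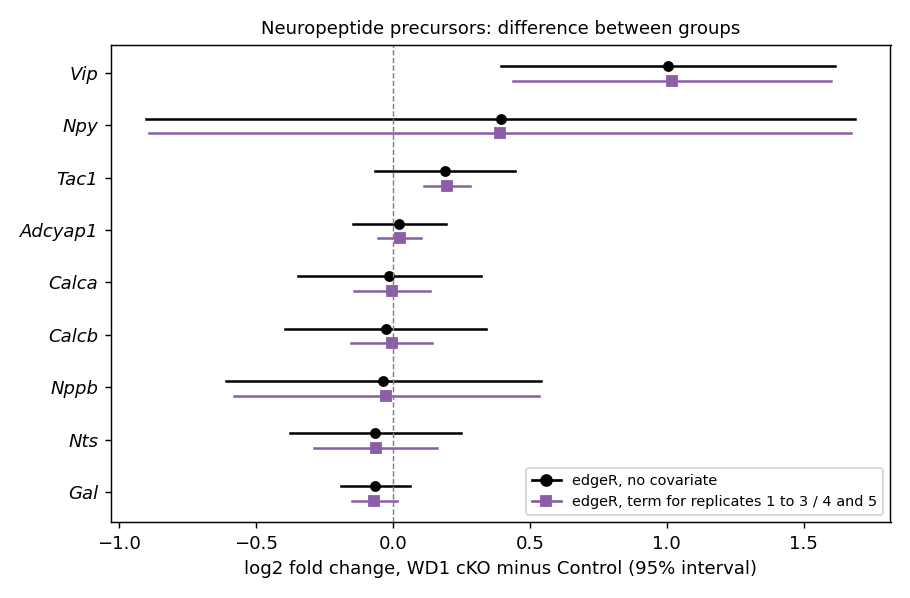
Log2 fold change of the 9 precursors tested, *WD1* cKO minus Control, with 95% intervals, in edgeR without a covariate (black circles) and with a term for replicates 1 to 3 against 4 and 5 (purple squares). The interval of *Vip* lies above 0 in both fits (0.40 to 1.61 without the term), and that of *Tac1* only with the term (0.11 to 0.28).

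The CGRP genes did not show a difference that these libraries could resolve. *Calca* was at 272, 246, 288, 408 and 378 CPM in Control replicates 1 to 5 and at 260, 319, 254, 381 and 366 CPM in *WD1* cKO replicates 1 to 5. All 5 *WD1* cKO libraries lay within the range of the controls. The log2 fold change was -0.01 (SE 0.15, 95% interval -0.35 to 0.32, edgeR, adjusted p = 1.00), and a change of the size seen for *Tac1* lies inside that interval. With the term for the sets the interval narrowed to between -0.14 and 0.14. *Calcb* was at 18.8, 16.6, 18.4, 29.6 and 27.6 CPM in controls and at 18.1, 20.9, 18.9, 27.1 and 24.4 CPM in *WD1* cKO libraries, a log2 fold change of -0.03 (SE 0.17, edgeR, adjusted p = 1.00). Within replicates 1 to 3 the value of *Calcb* was 0.11 (SE 0.08) and within replicates 4 and 5 it was -0.16 (SE 0.08), neither with an unadjusted p under 0.05 in edgeR, and the difference between the sets was not tested. The count of *Calca* was between 13.4 and 15.7 times that of *Calcb* in every library, with a mean of 14.5 in controls (SD 0.81) and 14.4 in *WD1* cKO libraries (SD 0.76), so both genes kept their proportion from library to library within a coefficient of variation of 5.12%.

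*Gal* and *Adcyap1* varied least of the members from library to library, their highest value being 1.22 and 1.28 times their lowest. *Gal* was at 67.2, 62.5, 65.8, 63.4 and 57.7 CPM in controls and at 64.8, 64.6, 62.8, 55.7 and 54.9 CPM in *WD1* cKO libraries. Its log2 fold change was -0.06 (SE 0.06, 95% interval -0.19 to 0.06, edgeR, adjusted p = 1.00). *Adcyap1*, whose peptide PACAP is a relative of VIP, was at 108, 101, 99.0, 124 and 119 CPM in controls and at 110, 107, 97.5, 122 and 125 CPM in *WD1* cKO libraries. Its log2 fold change was 0.02 (SE 0.08, 95% interval -0.15 to 0.19, edgeR, adjusted p = 1.00). Within replicates 1 to 3 and within replicates 4 and 5, the values were -0.03 (SE 0.04) and -0.13 (SE 0.06) for *Gal*, and 0.03 (SE 0.05) and 0.02 (SE 0.04) for *Adcyap1*. For both genes the groups overlapped, and neither interval of the pooled value reached beyond 0.19 on the log2 scale on either side.

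Of the peptides that mark itch neurons, *Nts* (neurotensin) was at 2.58 to 3.79 CPM in controls and at 2.60 to 3.62 CPM in *WD1* cKO libraries, with a log2 fold change of -0.06 (SE 0.14, edgeR, adjusted p = 1.00), or -0.12 (SE 0.15) within replicates 1 to 3 and 0.03 (SE 0.17) within replicates 4 and 5. *Nppb* (B-type natriuretic peptide) was at 0.265 to 0.736 CPM in controls and at 0.380 to 0.590 CPM in *WD1* cKO libraries. At 6 to 20 counts in a library, its log2 fold change of -0.03 had a 95% interval from -0.61 to 0.54, and a difference below that size was not detectable at this depth. With the term for the sets it was -0.02 (SE 0.26). *Sst* (somatostatin) fell under the count minimum: 4, 2, 54, 2 and 10 counts were found in Control replicates 1 to 5 and 12, 8, 2, 3 and 6 counts in *WD1* cKO replicates 1 to 5. Apart from Control replicate 3, at 2.54 CPM, all libraries were at or below 0.505 CPM.

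*Npy* also varied widely between controls. It was at 0.293, 0.221, 1.98, 0.0736 and 1.45 CPM in Control replicates 1 to 5, or 6, 5, 42, 2 and 33 counts. It was at 1.01, 0.760, 0.861, 1.07 and 1.44 CPM in *WD1* cKO replicates 1 to 5, or 24, 20, 26, 21 and 50 counts. The controls thus lay on either side of the *WD1* cKO libraries, with replicates 1, 2 and 4 below all of them and replicates 3 and 5 above all of them. The log2 fold change was 0.39 (SE 0.59, 95% interval -0.90 to 1.69, edgeR, adjusted p = 1.00).

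The high controls of *Npy* were those with markers of other tissues. Control replicate 3, with the highest *Npy* and *Sst*, also held 4.66 CPM of the glycine transporter gene *Slc6a5*, 3.30 CPM of the vesicular GABA transporter gene *Slc32a1* and 3.81 CPM of *Pax2*, each at or below 0.364 CPM in every other library. Control replicate 5, with the next *Npy* level, held 112 CPM of the noradrenaline transporter gene *Slc6a2* and 53.1 CPM of *Dbh*, which makes noradrenaline, against at most 10.9 and 7.58 CPM in every other library. The part of these markers' sources in the *Npy* and *Sst* levels was not tested. When both controls were left out, a choice made after their values were seen, *Npy* was 2.44 higher in *WD1* cKO libraries on the log2 scale (SE 0.39, 95% interval 1.58 to 3.31, edgeR, unadjusted p = 7.8e-05). The adjusted p of 0.13 in edgeR missed the threshold. The controls left out held the 2 highest *Npy* levels of all libraries, so the p of *Npy* in that fit does not test a difference. In that fit 2 of 9 members had an unadjusted p under 0.05, against 4.9% of the genes tested. They were *Vip* and *Npy*, of which *Npy* is counted only through the choice of libraries. The *Npy* value rests on 3 controls. With all 10 libraries, the difference was 0.08 within replicates 1 to 3 and 0.83 within replicates 4 and 5. Sympathetic markers differed between the libraries of that fit too. *Slc6a2* was at 9.48, 5.70, 3.71, 0.254 and 10.9 CPM in *WD1* cKO replicates 1 to 5 and at 1.66, 0.441 and 0.331 CPM in Control replicates 1, 2 and 4. *Dbh* was at 7.58, 4.52, 2.88, 0.203 and 6.32 CPM in *WD1* cKO replicates 1 to 5 and at 0.878, 0.397 and 0.184 CPM in the same 3 controls. Both were thus higher in 4 of the 5 *WD1* cKO libraries than in the 3 controls, and not in replicate 4. Their part in the *Npy* difference of that fit was not tested. The sum of the 9 markers was between 22.4 and 58.2 CPM in the *WD1* cKO libraries and between 23.3 and 37.9 CPM in the 3 controls. *Th*, which also marks sensory neurons, had the highest mean of the 9.

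**Figure D4:**
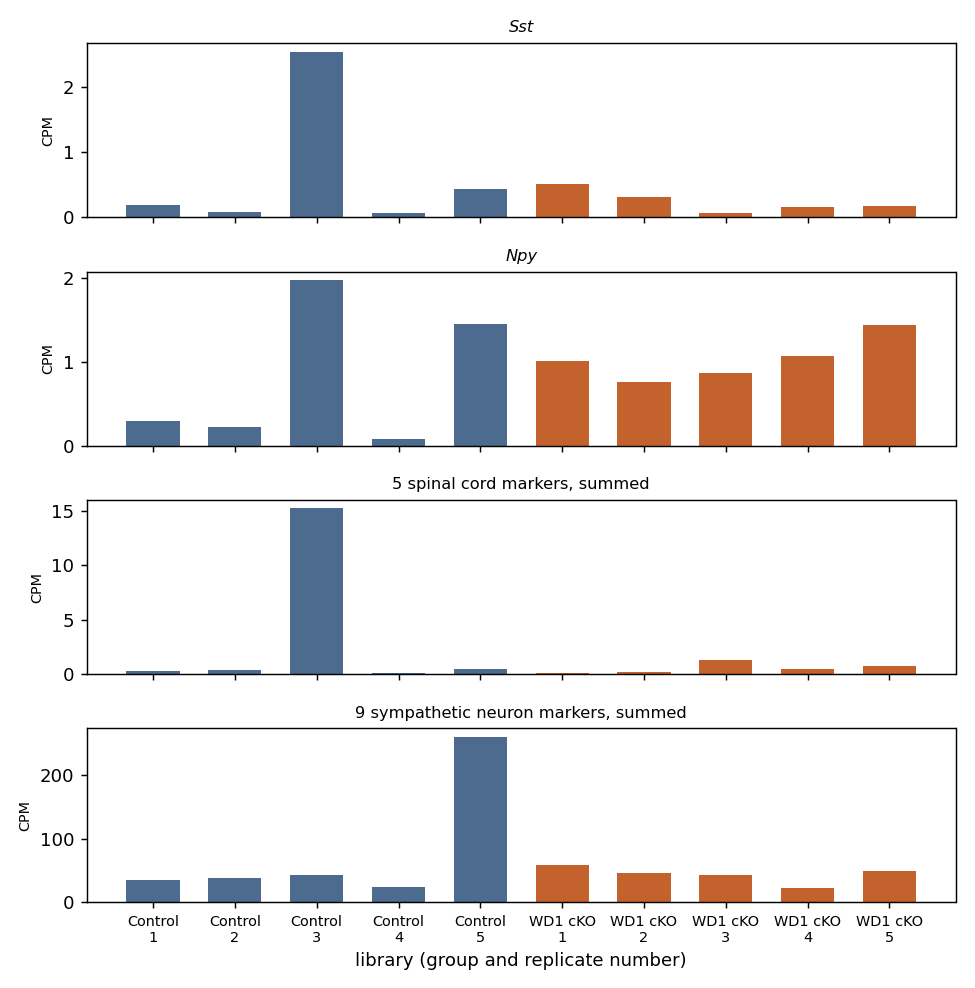
CPM of *Sst*, *Npy*, the summed spinal cord markers and the summed sympathetic neuron markers in each library (Control in blue, *WD1* cKO in orange). Control replicate 3 holds the highest *Sst* (2.54 CPM), *Npy* (1.98 CPM) and spinal cord sum (15.3 CPM), and Control replicate 5 the highest sympathetic sum (260 CPM). The sympathetic sum includes *Th*, which also marks sensory neurons.

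For *Calca*, *Calcb*, *Tac1* and *Adcyap1*, replicates 1 to 3 and replicates 4 and 5 differed by more than the groups did. Over both groups, *Calca* was at 246 to 319 CPM in replicates 1 to 3 and at 366 to 408 CPM in replicates 4 and 5. *Calcb* was at 16.6 to 20.9 against 24.4 to 29.6 CPM, *Tac1* at 74.4 to 95.8 against 103 to 115 CPM, and *Adcyap1* at 97.5 to 110 against 119 to 125 CPM. *Nts* went the other way, at 2.89 to 3.79 CPM in replicates 1 to 3 and 2.58 to 2.79 CPM in replicates 4 and 5. These 5 of 9 members did not overlap between the sets, against 11.2% of the genes tested. The direction was the same in both groups for all 5. Replicates 4 and 5 exceeded replicates 1 to 3 in mean log2 CPM of *Calca* by 0.55 in controls and 0.44 in *WD1* cKO libraries, in that of *Calcb* by 0.67 and 0.42, in that of *Tac1* by 0.46 and 0.32, and in that of *Adcyap1* by 0.25 and 0.24. The value for *Nts* was -0.44 in controls and -0.28 in *WD1* cKO libraries, and whether these sizes differ between the groups was not tested. The blood markers, higher in replicates 1 to 3, move with this division, and their part in it was not tested. What the sets stand for is not given in the labels.

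The pattern over libraries was compared with that of the other genes by Pearson's r of log2 CPM after the group means were removed, over 10 libraries, as a description. The genes nearest to *Vip* were *Kif3b* (r = 0.99) and *Nefm* (r = 0.98), and those nearest to *Tac1* were *Slc24a2* (r = 0.99) and *Elovl7* (r = 0.99). *Calca* was nearest to *Tmem45b* (r = 0.99) and *Dgkz* (r = 0.98), *Calcb* to *Hmbox1* (r = 0.99) and *Acpp* (r = 0.99), *Adcyap1* to *Ctsf* (r = 0.98) and *Cav2* (r = 0.98), and *Nts* to *Luc7l* (r = 0.98) and *Plcd4* (r = 0.98). *Gal* was nearest to *Fam193a* (r = 0.98) and *Igdcc3* (r = 0.96), *Npy* to *Cdca5* (r = 0.97) and *Syt15* (r = 0.96), and *Nppb* to *Slc12a1* (r = 0.97) and *Gm32815* (r = 0.94). These values share the division between the sets. Within the 6 libraries of replicates 1 to 3 alone, r for the same pairs lay between 0.79 for *Gal* with *Fam193a* and 1.00 for *Vip* with *Nefm*. The pairs were chosen for their r over all 10 libraries, which include these 6, so this is no independent check. How high r of the nearest gene would be without any relation was not tested.

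Of 29 genes for receptors of the member peptides, 24 were tested, and none had an adjusted p-value under 0.05. *Tacr3* and *Galr2* had an unadjusted p under 0.05, both higher in *WD1* cKO libraries, or 8.33% of the list against 4.5% of all genes tested, and the list's median log2 fold change was 0.02. *Tacr3*, a tachykinin receptor that prefers neurokinin B, was at 2.34, 2.43, 2.54, 3.09 and 2.73 CPM in Control replicates 1 to 5. It was at 3.50, 3.34, 3.08, 4.47 and 4.96 CPM in *WD1* cKO replicates 1 to 5. The groups met only at *WD1* cKO replicate 3 and Control replicate 4, and the log2 fold change was 0.56 (SE 0.15, edgeR, unadjusted p = 0.0028, adjusted p = 0.94). With the term for the sets it was 0.55 (SE 0.10, edgeR, unadjusted p = 1.3e-04, adjusted p = 0.15). *Galr2*, a galanin receptor, was at 0.617 to 0.924 CPM in controls and at 0.927 to 1.18 CPM in *WD1* cKO libraries, without overlap. Its log2 fold change was 0.42 (SE 0.16, edgeR, unadjusted p = 0.031), with 0.64 in replicates 1 to 3 and 0.12 in replicates 4 and 5. *Adcyap1r1*, the PACAP receptor gene and the third of the list by p, had a log2 fold change of -0.37 (SE 0.27, edgeR, unadjusted p = 0.19). Its 2 highest libraries were Control replicates 3 and 5, at 21.3 and 22.2 CPM against 7.32 to 13.2 CPM in the others, and without them the value was 0.23. The CGRP receptor genes *Calcrl* and *Ramp1* had values of 0.08 (SE 0.06) and 0.01 (SE 0.17), and the substance P receptor gene *Tacr1* one of 0.13 (SE 0.17), with none past an unadjusted p of 0.05 in edgeR.

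Of the 16 genes that process and pack the peptides, all were tested, and in edgeR no adjusted p-value lay under 0.05. Of their log2 fold changes 11 lay below 0 and 5 above, the median was -0.02, and 1 had an unadjusted p under 0.05 (6.25% of the list against 4.5% of all genes tested). This was *Cadps2*, which primes dense core vesicles for release, at 12.5, 13.5, 11.3, 14.4 and 13.5 CPM in Control replicates 1 to 5. It was at 17.4, 17.4, 16.0, 15.04 and 20.4 CPM in *WD1* cKO replicates 1 to 5, above every control. The log2 fold change was 0.40 (SE 0.09, 95% interval 0.21 to 0.60, edgeR, unadjusted p = 6.4e-04, adjusted p = 0.56). DESeq2's Wald test called it, with an adjusted p of 0.041. Counting that test, it had an unadjusted p under 0.05 in each of 19 alternative fits (filters, scalings, models and left-out libraries), with adjusted p-values from 0.041 to 1.00. DESeq2 with the term for the sets, added after the data were seen, gave an adjusted p of 0.0086. Its relative *Cadps*, at 491 CPM in both groups, had a log2 fold change of 0.00 (SE 0.05). *Cpe*, *Pam* and *Pcsk1*, which trim and amidate precursors or cut them, had values of -0.02 (SE 0.04), -0.02 (SE 0.03) and -0.03 (SE 0.10). *Pcsk1n*, an inhibitor of the convertase PCSK1, had a log2 fold change of 0.24 (SE 0.15, edgeR, unadjusted p = 0.13), with -0.04 in replicates 1 to 3 and 0.64 in replicates 4 and 5. *Scg3*, a granin, had one of -0.08 (SE 0.05, edgeR, unadjusted p = 0.16), with -0.05 in replicates 1 to 3 and -0.13 in replicates 4 and 5.

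Of 17 other neuropeptide precursors, 11 were tested, none had an adjusted p-value under 0.05, and 2 were higher with an unadjusted p under 0.05 (18.2% of the list against 4.5% of all genes tested), with a median log2 fold change of 0.11. *Cck* (cholecystokinin) was at 3.12, 3.53, 4.85, 2.83 and 2.51 CPM in Control replicates 1 to 5. It was at 4.55, 4.52, 4.64, 4.42 and 6.26 CPM in *WD1* cKO replicates 1 to 5. Control replicate 3, the library with spinal cord markers, lay among the *WD1* cKO libraries and the other 4 controls below them all. The log2 fold change was 0.54 (SE 0.17, edgeR, unadjusted p = 0.0076, adjusted p = 1.00), with 0.25 in replicates 1 to 3 and 1.01 in replicates 4 and 5. *Trh* (thyrotropin-releasing hormone) was at 0.377 to 0.794 CPM in controls and 0.661 to 1.14 CPM in *WD1* cKO libraries, a log2 fold change of 0.58 (SE 0.21, edgeR, unadjusted p = 0.017), with 0.74 in replicates 1 to 3 and 0.34 in replicates 4 and 5. *Pdyn* (dynorphin) had a log2 fold change of -0.76 (SE 0.40, edgeR, unadjusted p = 0.082) and was highest in Control replicates 3 and 5, at 4.42 and 2.11 CPM against 0.794 to 1.24 CPM in the others. Without those libraries its value was 0.13.

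Among genes of the nociceptor lineage, in which CGRP and substance P are made, *Prdm12*, a transcription factor of the lineage, was at 158 to 191 CPM in controls and at 144 to 178 CPM in *WD1* cKO libraries. Its log2 fold change was -0.09 (SE 0.06, edgeR, unadjusted p = 0.19), with -0.06 in replicates 1 to 3 and -0.15 in replicates 4 and 5. *Ret*, a receptor of the non-peptidergic branch, was at 688 to 848 CPM in controls and at 756 to 851 CPM in *WD1* cKO libraries, with a log2 fold change of 0.08 (SE 0.06, edgeR, unadjusted p = 0.22), with 0.20 in replicates 1 to 3 and -0.08 in replicates 4 and 5. The groups overlapped for both genes. The channel genes *Scn10a* and *Trpv1*, which many peptidergic neurons express, had values of -0.01 (SE 0.06) and -0.09 (SE 0.11).

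**Figure D5:**
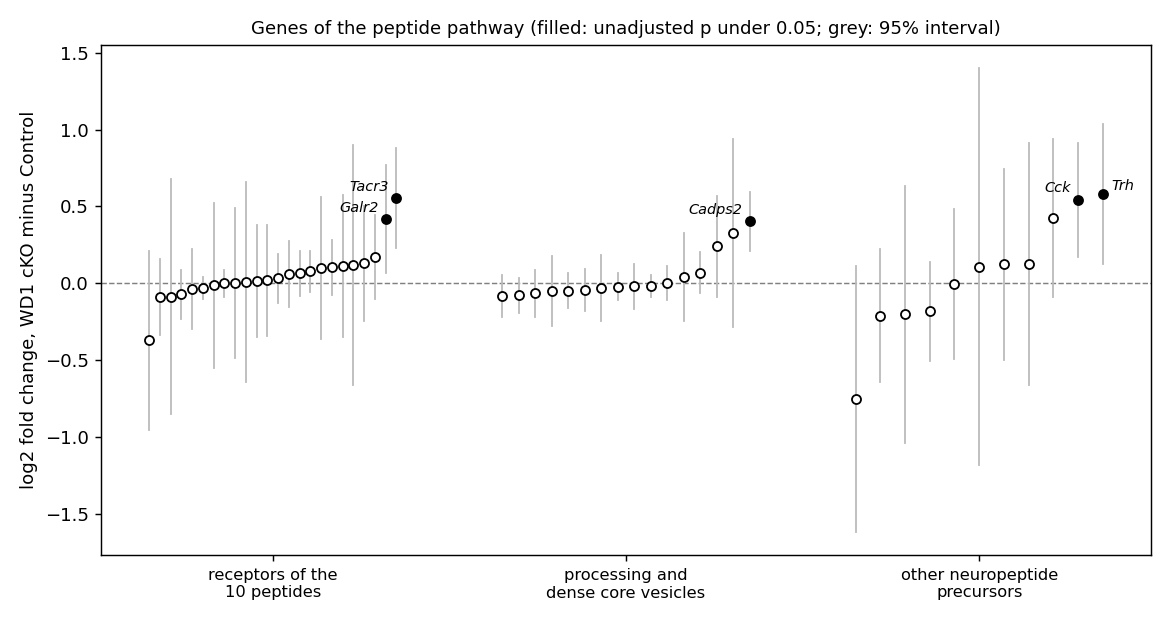
Log2 fold change of each gene tested in the lists of peptide receptors, processing and dense core vesicle genes and other neuropeptide precursors, *WD1* cKO minus Control, ordered by value within each list. Filled points have an unadjusted p under 0.05 in edgeR and grey lines are 95% intervals. *Tacr3*, *Galr2*, *Cadps2*, *Cck* and *Trh* lie above 0, and none passed the adjusted threshold in this fit.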

How the data were processed

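Bulk RNA-sequencing was carried out on DRG of E18.5 embryos, 5 per genotype. The libraries were stranded mRNA libraries. The authors mapped reads on GRCm39 (STAR 2.7.8a), obtained gene counts from featureCounts 2.0.1 and deposited raw counts. The strand setting of the counting and its treatment of reads with several matches are not given in the sources used here.

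In R 4.3.3, a gene was tested if 5 or more libraries held 10 or more counts of it (17490 of 55414), with edgeR 4.0.16 (TMM scaling, quasi-likelihood test, no covariate, Benjamini-Hochberg adjustment over all of them). Exact permutation tests were two-sided, on mean log2 CPM (prior count 1) for single genes and on mean percent for shares of counts. Symbols matched 52081 gene identifiers. Exon lengths came from GENCODE (GRCm38) and promoter sequences from RefSeq (GRCm38.p6). No replicate was a copy of another: the chi-square of their counts over its degrees of freedom was 4.35 or more in every pair.

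The members and lists were chosen with earlier results of these data known. The text names all members, *Dach1*, marker genes beside the results they move with, and in each list the genes with an adjusted p under 0.05 or otherwise the 3 with the lowest p. For each member tested, the 2 genes nearest in pattern are also named, and *Calcrl*, *Ramp1*, *Tacr1*, *Cadps*, *Cpe*, *Pam*, *Pcsk1*, *Scn10a* and *Trpv1* were added for their roles after their values were seen. Alternatives were DESeq2 1.42.0 and its size factors, other count filters, the replicate number as a block, *Xist* as a covariate, replicate sets, and each library left out. A result of the nociceptor lineage list is not reported here. The tests were tested on simulated data.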

Additional observations from a re-analysis of the deposited data

Results flagged for a closer look

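In 46 groups of 5 libraries (the members, *Dach1* and the named genes of the lists, in each genotype), a library standing apart from the other 4 was looked for by Dixon's criterion (gap over range above 0.71), which chance alone meets in about 1 group in 20. It was met by 3 groups. Control replicate 3 held 2.54 CPM of *Sst*, where the other controls held 0.0736 to 0.44 CPM, and that library also holds the spinal cord markers, whose part in the value was not tested. Control replicate 1 held 151 CPM of *Pcsk1n*, where the other controls held 94.8 to 104.7 CPM. *WD1* cKO replicate 5 held 6.26 CPM of *Cck*, where the others of its genotype held 4.42 to 4.64 CPM.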

How the results depend on the processing

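None of the members tested had an adjusted p under 0.05 in edgeR or DESeq2 with the other filters, scalings, covariates, replicate sets or left-out libraries, and *Tac1* reached it only in DESeq2 with the term for the replicate sets, which was added after the data were seen (log2 fold change 0.20, adjusted p = 0.0083). *Vip*, *Npy* and *Tac1* stayed above 0 and *Gal* below 0 in all of these. With *Xist*, for which the groups were not balanced, as a covariate, *Vip* was 0.90 (SE 0.29, edgeR, unadjusted p = 0.011). In the same fit *Tac1* was 0.16 (SE 0.13, edgeR, unadjusted p = 0.26) and *Gal* -0.02 (SE 0.06). Signs of values near 0 turned: *Calca* was 0.01 with *Xist* as a covariate, 0.044 in replicates 1 to 3 and 0.031 without Control replicates 3 and 5, and *Calcb* was 0.11 in replicates 1 to 3 and 0.0034 without those controls. *Nppb* was 0.0062 with the replicate block, 0.093 with *Xist* and 0.046 in replicates 1 to 3, and *Nts* 0.030 in replicates 4 and 5. As each library was dropped in turn, the log2 fold change lay between -0.092 and 0.093 for *Calca*, -0.12 and 0.10 for *Calcb*, -0.19 and 0.17 for *Nppb*, -0.023 and 0.070 for *Adcyap1*, -0.14 and 0.0056 for *Nts*, and 0.070 and 1.04 for *Npy*. The members' share of the total count differed by -0.0011 to 0.0041 percentage points in those fits. Of the other named genes, *Pcsk1n* turned to -0.040 in replicates 1 to 3, *Ret* to -0.078 in replicates 4 and 5, and *Adcyap1r1* and *Pdyn* to 0.23 and 0.13 without Control replicates 3 and 5. *Cadps2* was called by DESeq2 without and with the set term, at 0.40 and 0.41.

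Of all genes tested, 7 had an adjusted p under 0.05 in edgeR, 4 under the filter of mean count 100, 4 with *Xist*, 11 with the set term, 3 in replicates 1 to 3, 3 in replicates 4 and 5, 19 in DESeq2, 33 in DESeq2 with the set term, 4 without Control replicates 3 and 5, and 3 to 6 with one library left out. An unadjusted p under 0.05 was found for 787, rising to 1496 without the filter, 1241 with the replicate block and 1282 with the set term. Groups without overlap were found for 186 genes, and for 274 to 380 with one library left out. Members with an unadjusted p under 0.05 numbered 1, which became 0 under the mean-count filter (*Vip* is not tested there) and 2 with the block, with the set term in either tool, in either set, and without Control replicates 3 and 5, and 1 to 2 with one library left out. Without those controls, 1 of the 2 is *Npy*, whose highest levels lay in the libraries left out. Receptors numbered 2, which became 0 under the mean-count filter, 1 in DESeq2 without and with the set term and with the block, 4 without Control replicates 3 and 5, and 1 to 3 with one library left out. Processing genes numbered 1, which became 3 with the block and 5 in replicates 4 and 5, and 1 to 2 with one library left out. Other precursors numbered 2, which became 1 under the mean-count filter, in replicates 1 to 3 and without Control replicates 3 and 5, and 2 to 4 with one library left out. Apart from the mean-count filter, which tests fewer genes, the cause was not tested.

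The labels do not say that replicate numbers pair the samples, and the samples were treated as unpaired. The study's methods name no covariate, and 1 same-numbered pair was not correlated over 0.1. That single pair does not show that the samples are unpaired. Deviations of same-numbered libraries correlated at 0.04 to 0.39, with 4 of 5 pairs over 0.1 and a median of -0.14 for the other pairs. Of the 10 libraries, 7 correlated best with their own number. Same-numbered libraries always lie in the same set, so the division between the sets enters these values. Whether same-numbered samples share an origin was not tested. With the replicate block, *Vip* was 1.04 (adjusted p = 0.19) and *Tac1* 0.20 (adjusted p = 0.20), and the block changed no other member's call. *Sst*, *Nppb* and *Npy* rest on few counts, which limits what their differences can show.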
